A study of Arabidopsis thaliana with 14 samples.

Results

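The data described here concern 44 Arabidopsis genes whose transcripts were lower in the ibm1-1 mutant than in the wild type Col-0 both in soil and on sterile medium. They were chosen by their measured transcript levels in these same libraries, among the 21912 genes counted in both experiments. A member had a mean Col-0 level of at least 1 CPM (a gene's count per 1000000 counts of the library) in each experiment, which 18159 genes met. Its mean log2(CPM + 0.5) in ibm1-1 minus that in Col-0 was -0.9 or less in soil and again in medium, with every ibm1-1 library below every Col-0 library. These 44 genes are 0.242% of the 18159. In a single experiment the rule took 1.69% of the 18159 in soil and 1.53% in medium, and its mirror image for higher genes took 3.3% in soil and 3.45% in medium. The mirrored rule took 254 genes that were higher in both experiments, while 25 genes were lower in soil and higher in medium and 15 were higher in soil and lower in medium.

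The libraries were made from mRNA of whole seedlings. The soil groups were ibm1-1 (3 libraries) and Col-0 (3 libraries), kept for 5 days on Murashige and Skoog plates and for 10 more days in soil. The medium groups were ibm1-1 (2 libraries) and Col-0 (2 libraries), taken at 7 days from sterile plates of the same medium. The ibm1-1 allele is a point mutation in the Col-0 background and the only allele sequenced here, so that an effect of another mutation in this line cannot be told apart from that of IBM1. Soil and medium also differ in age, and possibly in read processing, so these cannot be told apart either. Each soil library came from a pool of seedlings, and the study's methods call the libraries of both experiments biological replicates.

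IBM1 is a JmjC-domain histone demethylase that takes methyl groups off lysine 9 of histone H3. That mark and cytosine methylation at CHG sites (H being A, C or T) maintain each other through the methyltransferases KYP and CMT3, and IBM1 is known to keep both out of the bodies of transcribed genes. Genes that lose transcript in an ibm1 mutant are therefore of interest as possible places where these marks stay on. Chromatin marks and DNA methylation were not analysed here, so whether a gene described below is silenced directly was not tested.

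The libraries held 23309938 to 24651600 counts in soil ibm1-1 and 19957585 to 27001069 in soil Col-0, and 18260809 to 19108010 in medium ibm1-1 and 19924658 to 21411230 in medium Col-0. IBM1 itself gave 19.3 to 20.6 CPM in ibm1-1 and 24.1 to 25.2 CPM in Col-0 in soil, and averaged 17.1 ± 0.0581 CPM in ibm1-1 and 26.4 ± 2.11 CPM in Col-0 in medium. Here and below, means are given ± SD with n = 3 libraries per genotype in soil and n = 2 in medium. A point mutation need not lower the transcript, so these levels do not check the labels. Over the 18159 genes the median difference was 0.10 in soil and -0.04 in medium, and -0.02 in each with TMM-scaled library sizes. Of 9 stomatal lineage genes, 3 were called lower in medium and 0 in soil (edgeR quasi-likelihood test, fold change above 2 and Benjamini-Hochberg adjusted p below 0.05). Their summed level was 97.2 to 114 CPM in ibm1-1 and 170 to 184 CPM in Col-0 in medium, against 115 to 120 CPM in ibm1-1 and 117 to 120 CPM in Col-0 in soil. Of 10 root marker genes and 6 leaf photosynthesis genes, 0 were called lower in either experiment, but their summed levels also differed. Root genes summed to 104 to 121 CPM in ibm1-1 and 137 to 151 CPM in Col-0 in medium, and to 56.4 to 58.4 CPM in ibm1-1 and 47.1 to 51.1 CPM in Col-0 in soil. Photosynthesis genes summed to 19500 to 20200 CPM in ibm1-1 and 23100 to 24100 CPM in Col-0 in medium, and overlapped in soil. RBCS1A weighs most in that sum, at 12200 CPM in ibm1-1 and 14400 CPM in Col-0 in medium. There 4 of the 6 were lower without overlap. CAB3 (492 CPM in ibm1-1, 306 CPM in Col-0) and LHCB2.1 (22.3 and 18.2 CPM) were higher in medium. None of the 44 genes is in any marker list. In whole seedlings, fewer cells of a type and less RNA per cell cannot be told apart, and the part of cell composition in the members' values was not tested.

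The differences of the 44 genes ran from -2.68 to -0.92 in soil, with a median of -1.21, and from -2.89 to -0.91 in medium, with a median of -1.39. These values chose the genes and are given as a description. The rule alone makes the genotypes separate in every member. By itself, ibm1-1 lay below Col-0 without overlap at 18.4% of the 18159 genes in soil and at 34.6% in medium. edgeR called 44 of the 44 lower in soil (2.39% of all genes tested were) and 42 of the 44 in medium (1.53% were), which the rule nearly fixes, so that nothing is read from these counts. AT1G07050 and AT5G25840 were the ones not called in medium. By DESeq2, 38 of the 44 were called lower in both experiments, and AT4G28900, MIR169m and AT3G21310 were among those not called in both. The difference was deeper in medium for 29 members and deeper in soil for 15, and the 2 values lay within 0.25 of each other for 19 of the 44. Most were modestly expressed, with a median Col-0 level of 8.42 CPM in soil and 7.68 CPM in medium, against 18.3 and 20.9 CPM over the 18159 genes.

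**Figure D1:**
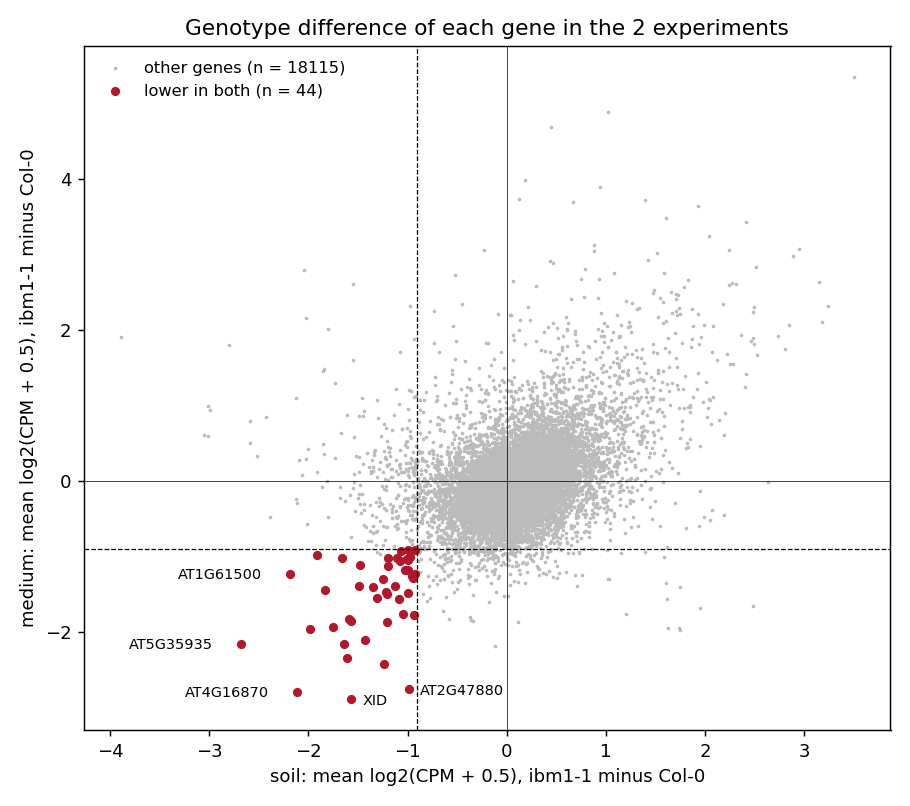
Each point is a gene, with its mean log2(CPM + 0.5) in ibm1-1 minus that in Col-0 in soil on the horizontal axis and in medium on the vertical axis. Dashed lines mark -0.9. The 44 members in red fill the lower left corner by construction, with all other genes in grey.

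The members nearest to the threshold in soil were AT1G07050, which codes for a CCT motif protein, and AT2G35140, which codes for a DCD domain protein, both at -0.922. Just outside in soil lay LIG6, a DNA ligase, at -0.898 and MAPKKK6 at -0.888, with -1.06 and -0.956 in medium. In medium the nearest members were AT5G25840 at -0.907 and AT1G07050 at -0.911. Just outside in medium lay AT3G01960 at -0.87 and AT4G18375, a KH domain protein, at -0.864, with -0.914 and -1.141 in soil. In soil LIG6 had 9.95, 12 and 10.6 CPM in ibm1-1, against 18.5, 20.8 and 22.6 CPM in Col-0.

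Each experiment can also be read in libraries that the other did not choose. By the medium libraries alone, with no minimum on the soil level, 370 genes met the rule, the 44 included. Of these, 315 were tested in soil, and 64, or 20.3%, were called lower there, against 2.39% of all genes. In the other direction they were called higher in soil at 6.98%, against 5.87% of all genes. Their median log2 fold change in soil was -0.36, against 0.00 over all genes. By the soil libraries alone, 348 genes met it, again with the 44 included. Of these, 318 were tested in medium, and 44, or 13.8%, were called lower, against 1.53% of all genes. They were called higher in medium at 7.23%, against 5.53% of all genes. The median log2 fold change of that whole set in medium was -0.06, against -0.01 over all genes.

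3 of the 44 genes are retrotransposons. AT5G35935, AT4G16870 and AT4G28900 are pseudogenes in RefSeq and copia-like transposable element genes in the annotation used by the study. Copia-like elements move through an RNA copy that is primed by a host tRNA, commonly the initiator methionine tRNA. Each of the 3 carries, without mismatch, the 12 bases complementary to the 3′ end, with its CCA, shared by 8 annotated tRNA-Met genes. The stretches below are shown for this match, and the capitals are the primer binding site. The site was not compared between copia-like and other elements, so the copia type rests on the annotation alone.
AT5G35935: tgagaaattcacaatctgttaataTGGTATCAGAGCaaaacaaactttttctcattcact
AT4G16870: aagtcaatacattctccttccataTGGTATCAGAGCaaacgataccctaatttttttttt
AT4G28900: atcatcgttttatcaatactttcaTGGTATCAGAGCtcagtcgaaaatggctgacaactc
On TAIR10.1 the stretches are chr5:14088391-14088450 (minus strand), chr4:9488423-9488482 (minus strand) and chr4:14259174-14259233 (plus strand). The site starts at base 1466 of AT5G35935, 61 bases before the first base of AT4G16870, and at base 58 of AT4G28900. The same 12 bases stand in the gene or the 250 bases before it in 6.43% of 3917 annotated pseudogenes and in 0.109% of 27443 protein-coding genes. This site was searched for after the 3 elements had been seen.

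AT5G35935 had the deepest difference of all 44 genes in soil. It gave 2.36, 2.39 and 2.26 CPM in ibm1-1, against 19.1, 15.6 and 18.4 CPM in Col-0, a difference of -2.68. In medium it gave 4.40 and 4.71 CPM in ibm1-1, against 20.5 and 23.7 CPM in Col-0, a difference of -2.16. The element was thus read at a like level in both wild-type experiments and at a small fraction of it in every mutant library.

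AT4G16870 was the most abundant of the elements by its mean Col-0 level in both experiments. Soil libraries gave 10.2, 13.1 and 12.6 CPM in ibm1-1, against 54.3, 48.8 and 57.2 CPM in Col-0, a difference of -2.12. Medium libraries gave 3.87 and 3.56 CPM in ibm1-1, against 21.6 and 37.8 CPM in Col-0, a difference of -2.79. The Col-0 libraries in medium differed more from each other than the mutant ones. RPP4, a disease resistance gene 69 bp from this element, differed by 0.30 in soil and 0.39 in medium. Whether reads are shared between them was not tested.

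AT4G28900 stood at 3.86, 4.71 and 4.19 CPM in soil ibm1-1, against 14.7, 14.8 and 14.1 CPM in soil Col-0, a difference of -1.66. In medium it was read at 0.837 and 0.986 CPM in ibm1-1, against 2.21 and 2.52 CPM in Col-0, a difference of -1.02. AT5G35935, AT4G16870 and the kinase gene AT1G61500 are the 3 members with a difference of -2 or less in soil. Other annotated pseudogenes did not share this pattern as a class. Of 79 measured with a Col-0 level of at least 1 CPM in both experiments, these 3 were the only ones at -0.9 or less in soil, 5 were at 0.9 or more, and the median was 0.14. In medium 9 of the 79 were at -0.9 or less and 6 at 0.9 or more, with a median of -0.06. 4 of the 79 met the mirrored rule. Reads from near-identical copies of an element can be assigned to the wrong copy or dropped, and how the counting treated them is not given in the sources used here.

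A pair of microRNA genes was also among the 44. MIR169k (AT3G26815, chr3:9875525-9875737) and MIR169m (AT3G26818, chr3:9878168-9878379) lie 2431 bp apart on the minus strand of chromosome 3. miR169 is a conserved plant microRNA that guides cleavage of transcripts of genes in the NF-YA family, which code for the DNA-contacting subunits of the NF-Y transcription factor. The mature sequences are printed because these genes, though separate loci, make the same small RNA in RefSeq. The seed, bases 2 to 8, is in capitals.
miR169k: uAGCCAAGgaugacuugccug
miR169m: uAGCCAAGgaugacuugccug
The precursors, from RefSeq on TAIR10.1, are printed to show what the mRNA libraries could tell apart, with the mature part in capitals.
MIR169k: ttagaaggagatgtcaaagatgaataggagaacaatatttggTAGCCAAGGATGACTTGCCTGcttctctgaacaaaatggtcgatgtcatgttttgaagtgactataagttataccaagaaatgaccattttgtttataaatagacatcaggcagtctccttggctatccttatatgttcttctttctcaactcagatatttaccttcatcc
MIR169m: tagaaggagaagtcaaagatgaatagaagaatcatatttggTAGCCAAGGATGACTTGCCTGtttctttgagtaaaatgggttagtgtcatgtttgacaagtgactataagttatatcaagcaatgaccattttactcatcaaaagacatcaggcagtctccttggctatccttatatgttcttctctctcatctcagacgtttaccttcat
The precursors of 213 and 212 bases were identical at 186 aligned positions, or 87.3% of the longer, and shared 13 stretches of 30 bases. MIR169m and MIR169i (AT3G26812) were identical at 89.6% and shared 33 such stretches, so that values of single copies are uncertain.

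In soil MIR169k gave 1.93, 1.70 and 2.18 CPM in ibm1-1, against 4.22, 3.96 and 4.87 CPM in Col-0, and MIR169m gave 1.93, 1.34 and 2.51 CPM in ibm1-1, against 4.07, 4.01 and 5.04 CPM in Col-0. In medium MIR169k gave 0.366 and 0.329 CPM in ibm1-1, against 2.06 and 1.68 CPM in Col-0, and MIR169m gave 0.209 and 0.493 CPM in ibm1-1, against 1.41 and 1.40 CPM in Col-0. The 2 precursors were near each other in level in every library of soil. Their differences were -0.99 and -1.03 in soil and -1.48 and -1.18 in medium. The mutant libraries in medium held 13 counts in all for each precursor, against 77 for MIR169k and 58 for MIR169m in Col-0. MIR169a, elsewhere on chromosome 3, was at 1.00 CPM in ibm1-1 and 1.75 CPM in Col-0 in soil, and at 0.347 CPM in ibm1-1 and 1.54 CPM in Col-0 in medium.

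The 10 NF-YA genes were not part of the rule. By edgeR's quasi-likelihood test, 7 of the 10 were higher in ibm1-1 in soil at an adjusted p below 0.05, where 25.4% of all genes tested were, and 5 of the 10 in medium, where 11.5% were. None was lower at that threshold in either experiment. With the fold change above 2 as well, 1 of the 10 was called in soil and 2 in medium, against 5.87% and 5.53% of all genes. NF-YA10 had a log2 fold change of 1.27 in soil (adjusted p = 5.12e-06) and 1.5 in medium (adjusted p = 0.0113), at 2.80 CPM in ibm1-1 and 1.06 CPM in Col-0 in soil, and 3.39 CPM in ibm1-1 and 1.22 CPM in Col-0 in medium. NF-YA3 rose by 0.42 (adjusted p = 0.00137) in soil and by 1.13 (adjusted p = 0.00294) in medium, and NF-YA2 by 0.68 (adjusted p = 0.000194) and by 0.94 (adjusted p = 0.00279). NF-YA5 did not pass, with 0.11 (adjusted p = 0.661) in soil and 0.00 (adjusted p = 0.999) in medium. The NF-YA genes were looked at because miR169 precursors were among the 44, and whether the precursor loss bears on them was not tested. Which of the 10 carry a miR169 site is not given here, so the 10 are read as a family and not as targets. Mature miR169 was not measured.

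IBM2 (AT5G11470, also ASI1 and SG1) was among the 44. It codes for a BAH-domain protein known to act at heterochromatin lying inside introns, where it is needed for full-length transcripts of IBM1 and other genes. Soil libraries gave 1.80, 1.87 and 1.3 CPM in ibm1-1, against 3.96, 4.26 and 4.14 CPM in Col-0, a difference of -1.11. Medium libraries gave 2.56 and 2.79 CPM in ibm1-1, against 5.92 and 5.98 CPM in Col-0, a difference of -1.02. Both experiments thus gave a like difference. None of a list of 10 loci linked to IBM1 in earlier work or by the study, IBM1 included, met the rule. DCL3, which makes the small RNAs of RNA-directed DNA methylation, was nearest, at -0.68 in soil and -1.31 in medium. Of these 10, edgeR called 0 lower in soil and 2 in medium.

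4 of the 44 genes carry the words DNA repair, DNA recombination or helicase in their annotation, or 9.09% of the members against 1.69% of the 18103 genes found in the annotation. The class was chosen after the members were known, so that nothing is read from the share. Of the 4, AT1G02670 did not meet the rule with a pseudocount of 1 or with a minimum of 5 CPM. 3 of the 4 are described.

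RECQSIM, a RecQ-like helicase particular to plants, gave 2.83, 1.91 and 2.09 CPM in soil ibm1-1, against 5.37, 6.56 and 5.78 CPM in soil Col-0. In medium it gave 2.72 and 2.68 CPM in ibm1-1, against 8.43 and 8.36 CPM in Col-0. The 5 other RecQ genes lay between -0.51 and 0.06 in soil and between -0.55 and -0.08 in medium, against -1.22 and -1.47 for RECQSIM. SRS2, a UvrD-type helicase, differed by -1.20 in soil and -1.12 in medium. AT1G02670, an ATPase annotated to DNA repair, differed by -1.12 and -1.38. The other genes with these words had a median difference of 0.12 in soil and -0.09 in medium, and 3 of them were at -0.9 or less in soil and 9 in medium.

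Among the 12 genes with the deepest weaker difference, XID stood apart by its size. This myosin XI gene, one of the motors that carry organelles along actin, is the longest of the 44 at 10702 bp with 43 exons. It gave 0.0858, 0.284 and 0.126 CPM in soil ibm1-1, against 1.19, 1.45 and 1.76 CPM in soil Col-0, a difference of -1.57. In medium ibm1-1 it had 3 and 2 counts, against 74 and 101 counts in Col-0. The ratio of CPM was 0.0316, with a 95% interval of 0.0101 to 0.0752 that covers counting error only. These same counts chose the gene, which the interval does not allow for, so nothing is read from it. The 9 other myosin XI genes above 1 CPM in Col-0 lay between -0.87 (XIJ) and 0.18 in soil and between -0.99 (XIF) and 0.25 in medium. MYA1, MYA2 and XIK, the most abundant along with XIH, were between -0.11 and 0.03 in soil.

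AT3G44690, a gene of unknown function, gave 0.987, 0.811 and 0.586 CPM in soil ibm1-1, against 4.70, 4.46 and 4.55 CPM in soil Col-0. In medium it gave 2.09 and 1.04 CPM in ibm1-1, against 7.88 and 6.68 CPM in Col-0. Its differences of -1.98 and -1.96 were the deepest in both experiments among the protein-coding genes that lay within 0.25 in soil and medium.

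AT3G04980, which codes for a DnaJ-domain protein of the co-chaperone type, had 0.901, 1.3 and 0.544 CPM in soil ibm1-1, against 4.56, 3.91 and 4.01 CPM in soil Col-0. In medium it had 1.57 and 1.37 CPM in ibm1-1, against 6.07 and 8.13 CPM in Col-0. It has the second highest density of CHG sites among the 44 genes, at 87.6 per kb.

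AT1G62085, a mitochondrial transcription termination factor (mTERF) gene, lies in a tandem cluster on chromosome 1. It gave 2.02, 2.15 and 2.97 CPM in soil ibm1-1, against 9.30, 8.07 and 7.82 CPM in soil Col-0, and 2.77 and 1.59 CPM in medium ibm1-1, against 11.1 and 11.3 CPM in medium Col-0. The 8 other mTERF genes of the cluster above 1 CPM in Col-0 lay between -0.20 and 0.47 in soil and between -0.34 and 0.12 in medium. The difference of AT1G62085, -1.64 in soil and -2.16 in medium, was outside the range of these relatives.

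AT5G35740, which codes for a small protein with an X8 carbohydrate-binding domain, lies 172163 bp from the element AT5G35935. It gave 2.92, 2.88 and 2.93 CPM in soil ibm1-1, against 10.7, 8.82 and 10.2 CPM in soil Col-0, and 4.34 and 3.94 CPM in medium ibm1-1, against 22.9 and 23.1 CPM in medium Col-0. AT3G60290, a 2-oxoglutarate-dependent oxygenase gene, gave 7.68, 8.23 and 8.38 CPM in soil ibm1-1, against 25.8, 23.8 and 26.4 CPM in soil Col-0. In medium AT3G60290 gave 1.05 and 1.20 CPM in ibm1-1, against 4.77 and 5.79 CPM in Col-0, so that its level was several-fold higher in soil than in medium in both genotypes, with differences of -1.59 in soil and -1.83 in medium. AT3G60286 overlaps it on the other strand over 1297 bp, or 56.8% of its length, and was at 1.13 CPM in ibm1-1 and 0.967 CPM in Col-0 in medium, so that part of the reads of either gene may belong to the other.

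AT1G64590, a Rossmann-fold dehydrogenase gene, gave 0.858, 0.771 and 0.754 CPM in soil ibm1-1, against 3.52, 3.16 and 3.32 CPM in soil Col-0. In medium it gave 4.29 and 3.78 CPM in ibm1-1, against 15.1 and 16.5 CPM in Col-0. AT1G36070, a WD40 repeat gene, gave 3.39, 3.45 and 4.10 CPM in soil ibm1-1, against 15.9, 13.0 and 13.8 CPM in soil Col-0, and 4.29 and 4.76 CPM in medium ibm1-1, against 12.1 and 14.2 CPM in medium Col-0. AT1G36070 was deeper in soil (-1.83) than in medium (-1.44), whereas AT1G64590 was deeper in medium (-1.85) than in soil (-1.57).

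AT3G24360, an enoyl-CoA hydratase family gene, gave 0.215, 0.527 and 0.503 CPM in soil ibm1-1, against 1.70, 2.00 and 2.09 CPM in soil Col-0, and 0.366 and 0.219 CPM in medium ibm1-1, against 3.16 and 2.66 CPM in medium Col-0. AT3G06070, of unknown function, was the most abundant member in soil. It gave 47.5, 44.2 and 45.8 CPM in soil ibm1-1, against 125, 132 and 132 CPM in soil Col-0, and 7.64 and 10.1 CPM in medium ibm1-1, against 20.1 and 28.3 CPM in medium Col-0. Its level was several-fold higher in soil than in medium in either genotype, while the difference was -1.49 in soil and -1.39 in medium.

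**Figure D2:**
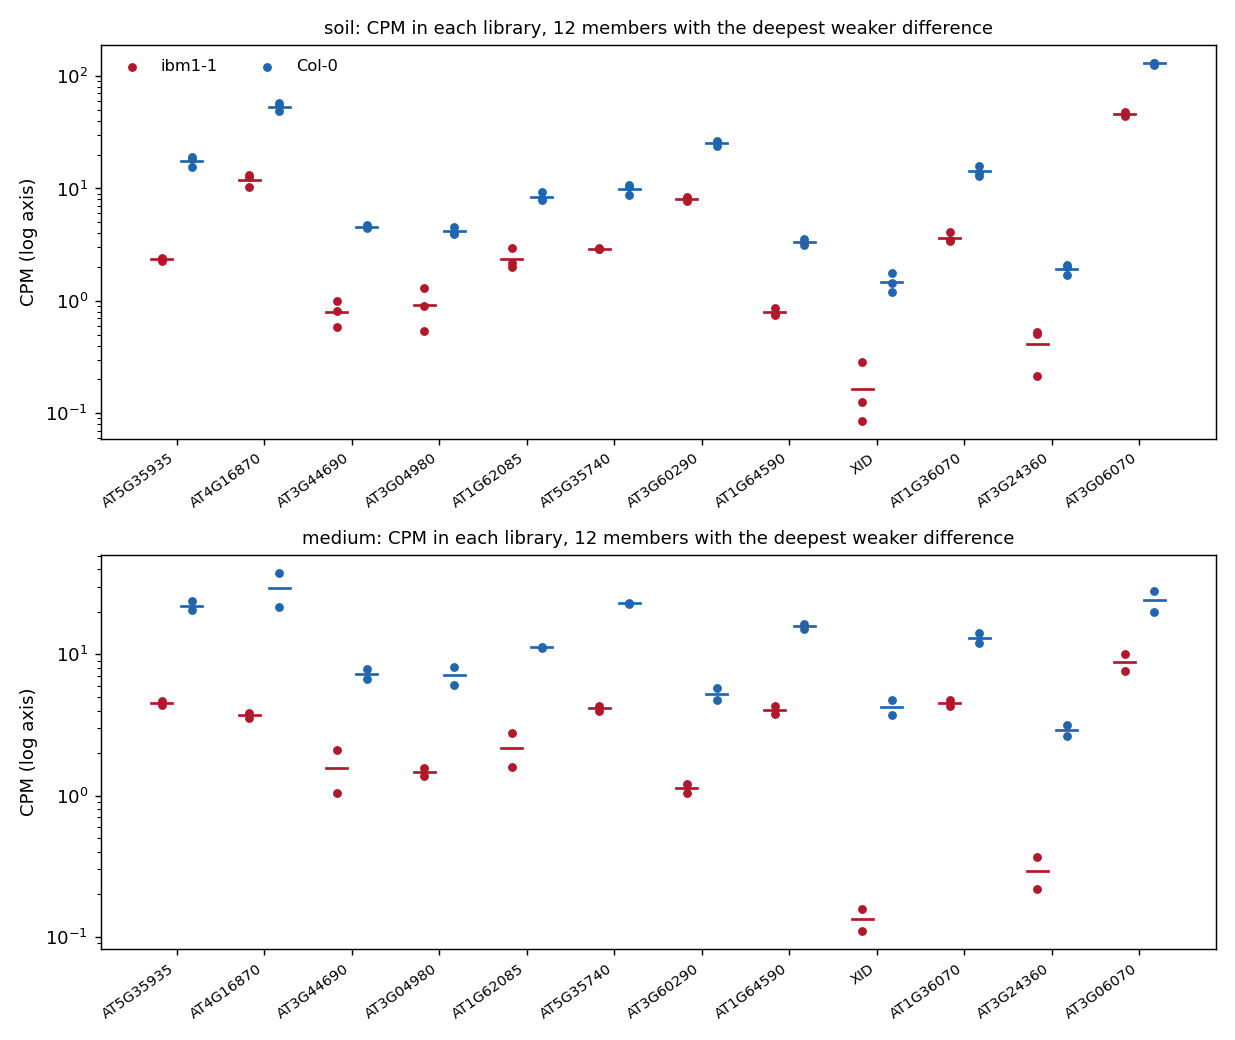
CPM on a log axis in each library for the 12 members whose weaker difference was deepest, soil above and medium below; ibm1-1 points (red, left) and Col-0 points (blue, right) with a bar at the mean of 3 libraries in soil and 2 in medium. No ibm1-1 point reaches a Col-0 point of the same gene, which the rule required, and XID and AT3G24360 have the lowest mutant levels.

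The other abundant members were AT1G07050, TIP2;3, CYL1 and ALN. AT1G07050, the CCT motif gene, gave 53.2, 52.8 and 55.1 CPM in soil ibm1-1, against 102, 102 and 103 CPM in soil Col-0, and 25.6 and 30.7 CPM in medium ibm1-1, against 51.3 and 55.0 CPM in medium Col-0. Its Col-0 libraries in soil differed from each other by less, relative to their mean, than those of any other member.

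TIP2;3 codes for a tonoplast aquaporin, a water and ammonia channel of the vacuole membrane best known from roots. It gave 25.8, 27.5 and 24.4 CPM in soil ibm1-1, against 50.9, 51.6 and 46.9 CPM in soil Col-0, and 6.54 and 7.28 CPM in medium ibm1-1, against 25.7 and 23.8 CPM in medium Col-0. Its relatives lay between it and 0: DELTA-TIP differed by -0.79 in soil and -0.72 in medium, and TIP2;2 by -0.37 and -0.67.

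CYL1 (AT5G13690) codes for an alpha-N-acetylglucosaminidase of the vacuole. It gave 12.2, 12.3 and 12.9 CPM in soil ibm1-1, against 32.9, 32.4 and 31.9 CPM in soil Col-0, and 17.2 and 11.4 CPM in medium ibm1-1, against 34.5 and 41.3 CPM in medium Col-0. It overlaps PAO1, a polyamine oxidase gene on the other strand, over 303 bp. PAO1 was at 0.947 CPM in ibm1-1 and 2.15 CPM in Col-0 in soil, and its differences were -0.86 in soil and -0.54 in medium. Whether the counting used strand is not given in the sources used here, so reads of the overlap cannot be told apart.

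ALN codes for allantoinase, which opens the ring of allantoin in purine breakdown and releases nitrogen for reuse. It gave 18.4, 20.4 and 16.9 CPM in soil ibm1-1, against 42.4, 42.8 and 43.4 CPM in soil Col-0, and 12.6 and 16.2 CPM in medium ibm1-1, against 26.9 and 32.1 CPM in medium Col-0. It was 1 of 4 members in amino acid or nitrogen metabolism, 9.09% of the 44 against 1.12% of the 18103 annotated genes. The others were BCAT-1, the aminotransferase gene AT5G27410 and the proline transporter gene ProT3. This count rests on 1 library, since without medium Col-0 replicate 2 only AT5G27410 of the 4 met the rule. The class was chosen after the members were known, and ProT3 also counts as a transporter, so that nothing is read from the share.

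BCAT-1 codes for a mitochondrial branched-chain aminotransferase, which starts the breakdown of leucine, isoleucine and valine. It averaged 14.5 ± 0.659 CPM in ibm1-1 and 29.0 ± 1.22 CPM in Col-0 in soil, and 10.5 ± 0.754 CPM in ibm1-1 and 21.9 ± 3.88 CPM in Col-0 in medium. Its relatives were not below Col-0 on average: BCAT-2, BCAT3 and BCAT4 had differences of 0.65, 0.33 and 0.85 in soil and 2.41, 0.02 and 0.17 in medium. The medium value of BCAT-2 is uncertain, since it gave 6.91 and 18.8 CPM in ibm1-1, against 0.402 and 5.09 CPM in Col-0. AT5G27410 averaged 6.87 ± 0.455 CPM in ibm1-1 and 14.3 ± 1.13 CPM in Col-0 in soil, and 12 ± 0.726 CPM in ibm1-1 and 25.3 ± 3.06 CPM in Col-0 in medium.

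ProT3, which imports proline and related compounds, gave 4.72, 4.34 and 5.03 CPM in soil ibm1-1, against 10.1, 9.77 and 11.3 CPM in soil Col-0, and 2.51 and 2.41 CPM in medium ibm1-1, against 4.27 and 6.16 CPM in medium Col-0. The relatives PROT1 and PROT2 had differences of -0.15 and 0.32 in soil and 0.03 and -0.19 in medium. ProT3 overlaps AT2G36580 by 81 bp on the other strand, and AT2G36580 was higher in ibm1-1, by 0.51 in soil and 0.51 in medium. HA8, a plasma membrane proton pump gene, gave 6.39, 6.61 and 6.07 CPM in soil ibm1-1, against 12.6, 11.9 and 13.6 CPM in soil Col-0, and 6.28 and 3.50 CPM in medium ibm1-1, against 11.1 and 13.5 CPM in medium Col-0. The 7 other pump genes above 1 CPM in Col-0 lay between -0.44 and 0.75 in soil and between -0.27 and 1.13 in medium. AT3G60070, a major facilitator family transporter gene, differed by -1.05 in soil and -1.76 in medium.

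3 members code for protein kinases, 6.82% of the 44 against 3.73% of the annotated genes. AT1G61500 and AT1G61400 are S-locus lectin receptor kinase genes, 31154 bp apart in a tandem array on chromosome 1. AT1G61500 gave 1.24, 1.34 and 1.26 CPM in soil ibm1-1, against 7.74, 6.86 and 8.27 CPM in soil Col-0, and 1.99 and 2.14 CPM in medium ibm1-1, against 5.37 and 5.65 CPM in medium Col-0. AT1G61400 averaged 0.851 ± 0.129 CPM in ibm1-1 and 2.64 ± 0.526 CPM in Col-0 in soil, and 1.39 ± 0.107 CPM in ibm1-1 and 6.42 ± 0.498 CPM in Col-0 in medium. The 6 other genes of the array above 1 CPM in Col-0 lay between -0.52 and 1.37 in soil. AT1G61610 averaged 4.46 CPM in ibm1-1 and 1.43 CPM in Col-0 in soil, and 1.83 CPM in ibm1-1 and 0.359 CPM in Col-0 in medium. Reads shared by near-identical genes of the array could be split among them. AT3G20200, a kinase gene with a hydrolase-like domain, differed by -1.20 in soil and -1.49 in medium.

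3 members are regulators of transcription or signalling. ARR15, a type-A response regulator gene that cytokinin induces and that dampens cytokinin signalling, averaged 8.28 ± 0.175 CPM in ibm1-1 and 20.3 ± 0.308 CPM in Col-0 in soil, and 3.03 ± 0.211 CPM in ibm1-1 and 8.27 ± 1.72 CPM in Col-0 in medium. Others of the type lay nearer to 0: ARR4 differed by -0.70 in soil and -0.61 in medium and ARR6 by -0.64 and -0.68, while RR3 differed by 0.29 and -0.42. RL5, a RADIALIS-like MYB gene, averaged 1.28 ± 0.122 CPM in ibm1-1 and 3.70 ± 0.126 CPM in Col-0 in soil, and 0.487 ± 0.318 CPM in ibm1-1 and 4.68 ± 0.652 CPM in Col-0 in medium. The CCT motif gene AT1G07050 is the other.

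**Figure D3:**
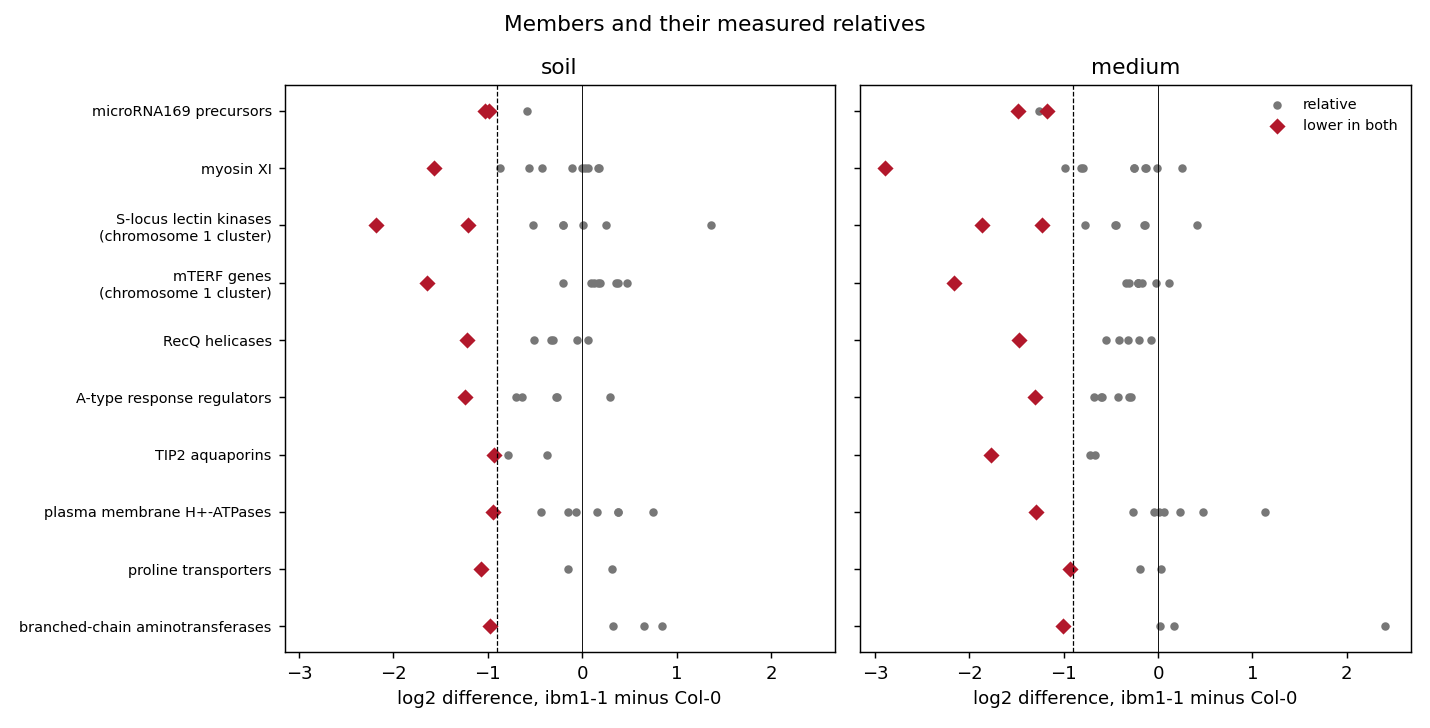
Log2 difference in CPM, ibm1-1 minus Col-0, in soil (left) and medium (right) of members (red diamonds) and of measured relatives with a Col-0 level of at least 1 CPM (grey points), by family. The dashed line marks -0.9. Every member lies left of all its relatives in both panels, except that MIR169a at -1.26 in medium lies left of MIR169m at -1.18.

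The remaining members include sugar and wall enzymes (AT3G59480, a pfkB-type sugar kinase gene; AT3G55710, a UDP-glycosyltransferase gene; AT3G21310, a Core-2/I-branching glycosyltransferase family gene) and AT5G27230, a Frigida-like gene with 0.172, 0.446 and 0.251 CPM in soil ibm1-1, against 1.22, 1.70 and 1.39 CPM in soil Col-0. AT3G59480 gave 1.80, 1.54 and 2.14 CPM in soil ibm1-1, against 3.93, 5.21 and 4.14 CPM in soil Col-0, and 1.62 and 2.03 CPM in medium ibm1-1, against 6.12 and 6.59 CPM in medium Col-0. AT3G21310 gave 0.343, 0.325 and 0.419 CPM in soil ibm1-1, against 0.630, 1.65 and 1.60 CPM in soil Col-0. Its lowest Col-0 library came near the mutant values. AT3G21320 overlaps 49.0% of it on the other strand (1512 bp), at 0.0262 CPM in ibm1-1 and 0.0234 CPM in Col-0 in medium. Reads of the overlap cannot be told apart. In medium AT3G21310 gave 0.419 and 0.602 CPM in ibm1-1, against 1.86 and 1.68 CPM in Col-0.

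AT2G47880 codes for a glutaredoxin, a small thiol-linked redox protein, and AT2G47885 overlaps 36% of it on the other strand (243 bp), so the same holds for its reads. It gave 6.74, 6.21 and 5.44 CPM in soil ibm1-1, against 10.1, 14.7 and 13.2 CPM in soil Col-0, and 1.31 and 0.986 CPM in medium ibm1-1, against 8.18 and 13.7 CPM in medium Col-0. Its differences of -0.98 in soil and -2.76 in medium lay furthest apart among the 44 genes. XID and RL5 were the other members whose values lay more than 1 apart. Whether these differences between the experiments exceed chance was not tested. AT1G69020, a prolyl oligopeptidase gene, gave 3.09, 1.99 and 2.93 CPM in soil ibm1-1, against 5.44, 5.81 and 6.02 CPM in soil Col-0, and 2.51 and 2.14 CPM in medium ibm1-1, against 4.77 and 5.93 CPM in medium Col-0. AT3G55710 differed by -1.08 in soil and -1.05 in medium, the UBA-domain gene NUB1 by -1.48 and -1.11, AT2G18100 by -0.95 and -1.26, AT2G35140 by -0.92 and -1.23, and AT5G25840 by -1.0 and -0.91.

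Most of the 44 genes were long, and a few were very short. Gene length, exon number and position were not used by the rule and are described from RefSeq annotation of TAIR10.1, where all 44 were found. The median length was 3370 bp, against 2480 bp over the annotated genes above the level minimum, and 28 of the 44, or 63.6%, were longer than 3000 bp, against 34.4%. 18 of the 44, or 40.9%, had 10 or more exons, against 22.3%. Of the 8117 genes under 20 CPM in Col-0 in both experiments, as 31 of the members were, 25.6% were longer than 3000 bp. Genes that met the rule in 1 experiment only were shorter, with 24% longer than 3000 bp among 263 in soil and 24.7% among 231 in medium. Of the genes higher in both experiments, 26.1% passed that length. The share was not even along the length scale. Members made up 0.574% of the genes up to 1000 bp (5 of 871), 0.119% of those of 1000 to 2000 bp, 0.0838% of those of 2000 to 3000 bp, 0.429% of those of 3000 to 4000 bp, 0.56% of those of 4000 to 5000 bp and 0.391% of longer ones. The 5 short members were MIR169k, MIR169m, AT2G47880, AT5G35740 and AT5G25840.

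**Figure D4:**
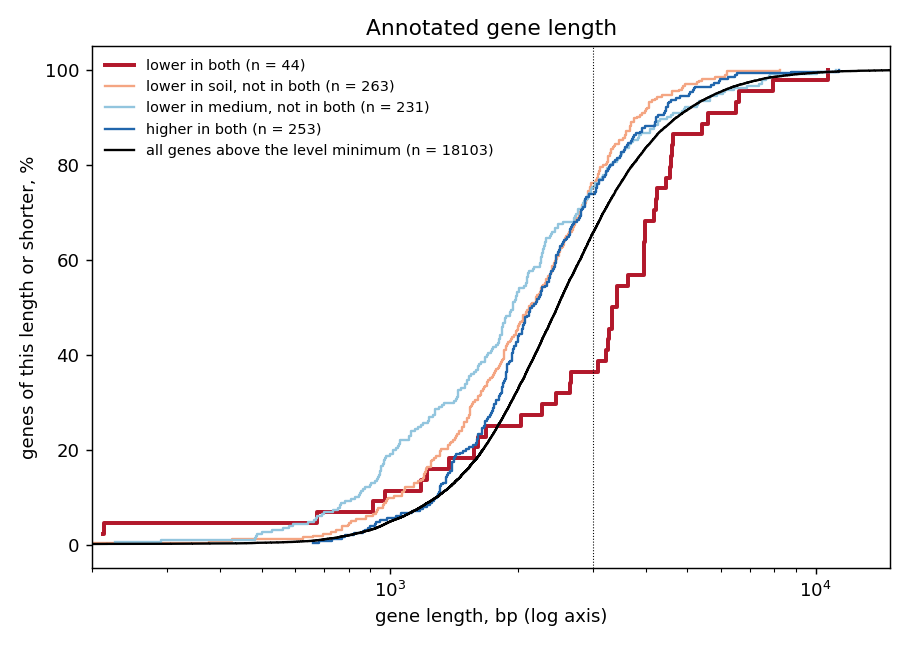
Cumulative share of genes, in percent, by annotated gene length in bp on a log axis, for the 44 members, the genes lower in 1 experiment only, the genes higher in both, and all annotated genes above the level minimum. The dotted line marks 3000 bp, which 63.6% of the members exceed, against 34.4% of all these genes.

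The density of CHG sites within the gene, counted on both strands, had a median of 65.4 per kb in members and 63.0 per kb over the annotated genes, and GC content had medians of 38.4% and 38.8%. AT5G35740 at 90.8 per kb and AT3G04980 at 87.6 per kb had the highest densities, and RL5 at 27.9 per kb the lowest. An intron longer than 1000 bp was present in 2 of the 44, or 4.55%, against 3.66%. In 6 of the 44, or 13.6%, over 20% of the genes within 500 kb were pseudogenes, against 4.10% of all, a share that marks regions near the centromeres. These were AT5G35935, AT5G35740, AT1G36070, NUB1, ALN and HA8. An annotated pseudogene lay within 5000 bp of 7 of the 44, or 15.9%, against 7.99%. All 5 chromosomes held members, 11, 7, 13, 4 and 9 on chromosomes 1 to 5. A gene on the other strand overlapped 10 of the 44, or 22.7%, against 27.5%.

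The nearest measured genes on either side, 88 in all, had a median difference of 0.02 in soil and -0.10 in medium, close to 0.10 and -0.04 over all genes. Of these 88, 4 were at -0.9 or less in soil and 6 in medium, and the counts include each miR169 precursor as the neighbour of the other. The rule, which also asks for a Col-0 level and no overlap, took 1.69% of the 18159 genes in soil and 1.53% in medium. Besides the precursors, those in soil were AT3G24420, beside AT3G24360, at -1.81 and AT1G02660, beside AT1G02670, at -1.28. In medium AT3G24420 and AT1G02660 differed by 0.01 and 0.16. AT5G27220, a Frigida-like gene 1132 bp from the Frigida-like member AT5G27230, differed by -0.62 in soil and -1.54 in medium. AT1G61490, 12 bp from AT1G61500 in the kinase array, differed by -0.52 and -0.77. HK2, which codes for a cytokinin receptor, begins 58 bp from AT5G35740 and differed by -0.78 and -0.36. The neighbours at positions 2 and 3 had medians between 0.06 and 0.15 in soil and between -0.12 and 0.00 in medium.

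**Figure D5:**
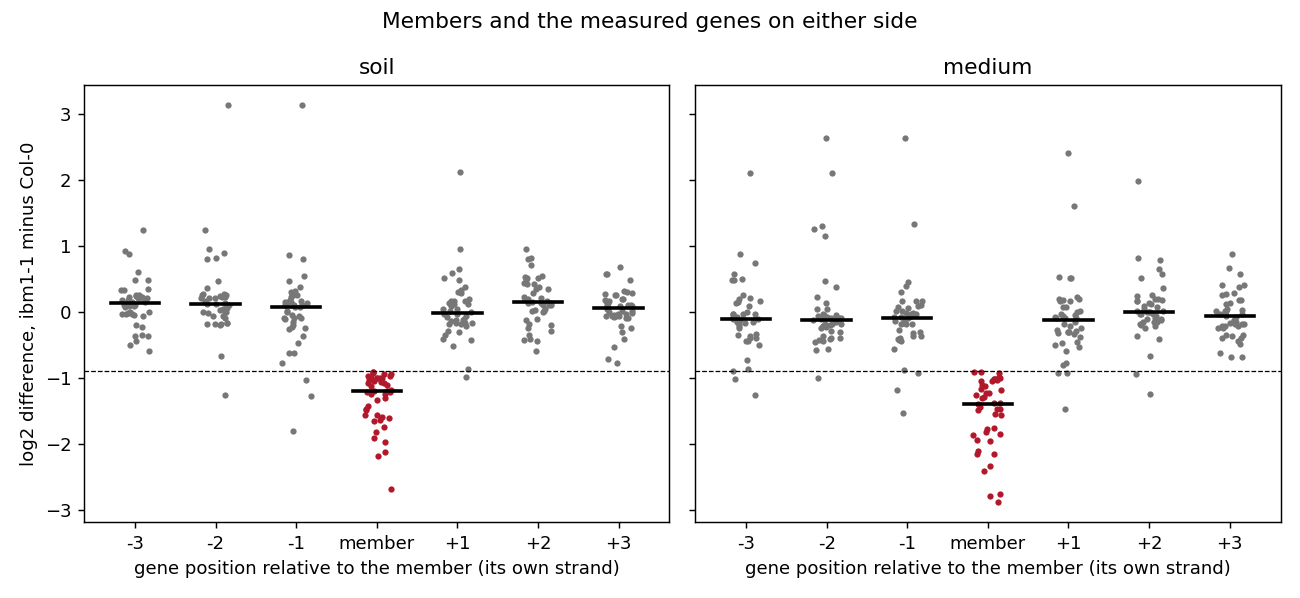
Log2 difference in CPM, ibm1-1 minus Col-0, of the 44 members (red) and of the 3 nearest measured genes on each side (grey), in soil (left) and medium (right); negative positions are upstream on the member's strand, black bars are medians and the dashed line marks -0.9. Medians of flanking genes lie between -0.02 and 0.15 in soil and between -0.12 and 0.00 in medium.

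The 250 bases before each gene's annotated start were searched on both strands for 6 short motifs. Shares are given for the members, then for the genes above the level minimum, then for 37897 windows of all genes. The G-box CACGTG, bound by bZIP and bHLH factors, was in 0 of the 44 windows, against 7.23% and 5.39%. TGGGCC, the site II element, was in 9.09%, against 17.3% and 11.4%. The W-box core TTGAC was in 43.2%, against 44.6% and 43.9%, and TATAAA was in 22 of the 44, against 45.9% and 44.6%. AAACCCTA was in 6.82%, against 3.61% and 4.75%, and TGTCTC in 11.4%, against 10.5% and 10.9%. CHG sites in these windows had a median of 9 in members and 8 over the annotated genes above the level minimum. A match is a description of letters and not of binding.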

How the data were processed

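The authors trimmed the reads, mapped them to TAIR10 and deposited raw counts per gene from HTSeq. For soil the methods name SolexaQA, cutadapt and TopHat, and for medium Trimmomatic and HISAT, while the submitters' processing notes list Trimmomatic 0.36, HISAT2 2.1.0 and HTSeq 0.9.1 for every RNA library. The methods name a directional library kit. The strand setting of the counting and the handling of multiply mapped reads are not given in the sources used here. Bisulfite samples were not analysed here, and 40 empty columns of the soil table were skipped. CPM was computed from these deposited counts over the column sum. edgeR 4.0.16 in R 4.3.3 (filterByExpr, TMM, quasi-likelihood test, genotype as the only factor) was fitted to each experiment alone, over 20082 genes in soil and 20871 in medium, and a gene was called at an adjusted p below 0.05 with more than a 2-fold change. On simulated counts it recovered 200 of 200 changed genes with 0 false calls, over 20037 genes for soil and 20689 for medium. The simulation gave all genes 1 common spread between libraries, left the genes of lowest level unchanged, and used changes well above 2-fold. It checks that the code runs, and not how well genes of low level or near the cutoff are called. Replicate numbers were taken from the labels. The study's methods call the libraries biological replicates, of pooled seedlings in soil, and p-values measure the spread between these libraries.

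Gene models came from RefSeq on TAIR10.1, matched by locus. The members and lists were chosen with earlier results of these data known. Values in every library were given for the 12 members with the deepest weaker difference, the 4 most abundant in each experiment, those near another member or overlapping a gene on the other strand, and those at the threshold. Relatives, the NF-YA genes, the repair class, the amino acid or nitrogen class and the primer binding site were chosen after the members were known. Alternatives were other library scaling (DESeq2 1.42.0 size factors, TMM), pseudocounts, levels, thresholds, tests, the replicate block and each library left out. The values of 1 member are not reported here.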

Additional observations from a re-analysis of the deposited data

How the results depend on the processing

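A minimum Col-0 level of 5 CPM left 25 of the 44 genes. A pseudocount of 1 and a threshold of -1 each left 31, a pseudocount of 0.1 gave 60 and a threshold of -0.8 gave 63. Other scaling and tests gave between 49 and 64, and 42 of the 44 met the rule with TMM-scaled library sizes. Leaving out each library in turn gave 40 to 56 genes. Of 704 recomputed differences of single members, 603 moved by less than 1 SD, 0 turned their sign, and the value nearest to 0 was -0.69. Without a fold-change threshold, 175 genes chosen in medium were called lower in soil and 77 chosen in soil were called lower in medium, against 64 and 44 with it. Leaving out each library gave 62 to 67 and 34 to 53.

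Libraries with the same replicate number were not paired by the labels. Their deviations from the genotype mean correlated between -0.0222 and 0.0309 in soil (17815 genes, 3 pairs) and at 0.152 in medium (18507 genes, 2 pairs). Libraries with different numbers correlated between -0.0527 and 0.0272 in soil and at -0.152 in medium. With 2 libraries per genotype the deviations mirror each other, so the medium pairs give 1 value and not 2. With the replicate number as a block, 64 genes chosen in medium were called lower in soil, 45 chosen in soil were called lower in medium, and 64 genes were called lower in both experiments by edgeR, against 61 without the block.

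Members of low level rest on few counts, such as 5 for XID in medium ibm1-1, and with 2 libraries per genotype in medium the spread is poorly known.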
